A study of Homo sapiens with 3 samples.

Results

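Among the sites listed for Fra-2 in MDA-MB-231 cells, 774 peaks lay away from transcription start sites, had no counterpart in the Fra-1 list and lacked the AP-1 element. They were taken from the 13003 peaks of the Fra-2 list, of which they are 5.95%. Of the 13003 peaks, 12695 were on chromosomes 1 to 22, 11583 of these lay more than 1 Mb from any unresolved run of the assembly of at least 1 Mb, and 4703 of these shared no base pair with any of the 9998 Fra-1 peaks. In 4124 of them the centre was more than 1 kb from every start site (TSS) of a protein-coding or long noncoding transcript. The last step left the 774 peaks without TGACTCA or, on the other strand, TGAGTCA within 100 bp of the centre, 18.8% of the distal Fra-2-only peaks. The members were thus selected on measured values, namely the presence of a peak in 1 list and its absence from the other. Position, absence from the Fra-1 list and absence of the exact element are therefore properties of the selection and not results.

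The series mapped Fra-1 and Fra-2 by chromatin immunoprecipitation and sequencing (ChIP-seq) in MDA-MB-231, a cell line from a triple-negative breast cancer of the basal B class, kept in serum-containing medium with no further treatment named in the labels. Its groups are a Fra-1 ChIP, a Fra-2 ChIP and input DNA, each from the same line. The labels speak of 2 independent replicates of each, but 1 peak list per antibody was analysed and the input DNA was not used here. There is thus no spread between replicates and every test below takes single peaks as its units. Peaks near each other are not independent, and intervals (95%, exact Clopper-Pearson) cover counting error only. Read depth and the calling threshold are unknown. The absence of a peak from the Fra-1 list therefore does not show that Fra-1 was not bound there.

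The products of FOSL1 (Fra-1) and FOSL2 (Fra-2) are Fos family proteins with a basic leucine zipper, which contact DNA once paired with a Jun protein. These AP-1 dimers recognise TGACTCA, in which the arms TGA and TCA flank a middle base that is C on one strand and G on the other. Jun proteins also pair with ATF and CREB proteins, and such dimers prefer the cyclic AMP response element (CRE) TGACGTCA, whose arms are 1 base further apart. In triple-negative breast cancer cells Fra-1 is known for its part in invasion and in the mesenchymal state, and most AP-1 binding is at distal enhancers.

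The sequences under the peaks show words close to the exact element that members held. A marked word need not be the only such word in its window, nor the nearest to the centre. Of the words that differ from it by 1 base and lay in at least 20 members, the 3 most in excess over nearby sequence are shown in wide members that hold them, with the bases around them. All are read from GRCh37, the assembly behind hg19, 5′ to 3′ on the strand given, and the capitals mark the word. In the first set the mismatch is at the middle base, which gives TGAATCA on one strand and, on the other strand, TGATTCA.
EML6 intron, chr2:54956048-54956088, minus strand: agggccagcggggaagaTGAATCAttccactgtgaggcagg
Outside protein-coding genes, TUBB2B nearest, chr6:3209659-3209699, plus strand: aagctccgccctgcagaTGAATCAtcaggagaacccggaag
EHF intron, chr11:34675640-34675680, plus strand: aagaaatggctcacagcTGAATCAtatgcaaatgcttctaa
BRINP2 intron, chr1:177225679-177225719, plus strand: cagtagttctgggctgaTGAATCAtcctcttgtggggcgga
Outside protein-coding genes, NANOS1 nearest, chr10:120766626-120766666, minus strand: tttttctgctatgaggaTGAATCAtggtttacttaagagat
STK10 intron, chr5:171530029-171530069, plus strand: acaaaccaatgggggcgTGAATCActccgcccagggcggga

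In the second set the mismatch is at the second base, which gives TTAGTCA in the orientation shown.
ANAPC11 intron, chr17:79856496-79856536, minus strand: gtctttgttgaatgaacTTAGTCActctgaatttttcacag
GRK5 intron, chr10:121209789-121209829, plus strand: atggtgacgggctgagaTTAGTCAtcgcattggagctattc
DGKZ intron, chr11:46385259-46385299, minus strand: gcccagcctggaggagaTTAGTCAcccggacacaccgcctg

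In the third set the mismatch is at the third base from the end, which gives TGACACA in the orientation shown. Each of these windows held 2 one-mismatch words, and those near ARHGAP26 and in MECOM held TGAATCA as well. The TGACACA near ARHGAP26 lay 92 bp from the peak centre.
DCAF4 intron, chr14:73413342-73413382, minus strand: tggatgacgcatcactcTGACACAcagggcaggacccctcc
Outside protein-coding genes, ARHGAP26 nearest, chr5:142641476-142641504, plus strand: tgctcTGACACActgtatttttaaaactt
MECOM intron, chr3:169244187-169244227, plus strand: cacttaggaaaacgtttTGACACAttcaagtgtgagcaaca

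A further set holds the CRE, in the widest members that have it. All but the FBRSL1 window also held a one-mismatch word, which near TAF1L was TGAATCA. The CRE in TRPM8 lay 93 bp from the peak centre.
Outside protein-coding genes, TAF1L nearest, chr9:32672642-32672683, plus strand: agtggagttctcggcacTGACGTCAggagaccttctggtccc
TRPM8 intron, chr2:234913123-234913151, plus strand: ttgcctccaaatggtggTGACGTCAtggg
Outside protein-coding genes, FBRSL1 nearest, chr12:133022833-133022874, plus strand: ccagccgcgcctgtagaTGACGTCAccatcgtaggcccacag
SGMS1 intron, chr10:52366503-52366544, plus strand: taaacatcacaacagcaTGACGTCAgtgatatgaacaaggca

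The last set shows the whole window, from 100 bp before to 100 bp after the centre, of 2 wide members that hold neither a one-mismatch word nor the CRE, and so has no capitals. The widest of this kind is described without its sequence.
FOXP1 intron, chr3:71158551-71158751, plus strand: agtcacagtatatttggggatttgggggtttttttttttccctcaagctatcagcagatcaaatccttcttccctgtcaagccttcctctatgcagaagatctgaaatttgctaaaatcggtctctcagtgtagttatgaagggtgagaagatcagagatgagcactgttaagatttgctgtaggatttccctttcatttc
MYO9B intron, chr19:17246376-17246576, plus strand: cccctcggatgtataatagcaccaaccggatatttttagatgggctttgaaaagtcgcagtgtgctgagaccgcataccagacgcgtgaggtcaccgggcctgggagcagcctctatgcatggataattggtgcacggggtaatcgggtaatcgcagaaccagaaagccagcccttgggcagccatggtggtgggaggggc

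The label "without AP-1 element" held for the exact 7-base element only, and only within 100 bp of the centre. At least 1 of the 19 words that differ from it by 1 base (counted with their reverse complements) lay within 100 bp of the centre in 651 members, 84.1% (81.3 to 86.6). In 1462 windows of that length 2000 bp to either side, outside all peaks and also free of the exact element, the share was 45.9%. The members were compared with the 1848 distal Fra-2 peaks that overlap a Fra-1 peak and lack the element (shared peaks) and with the 934 distal Fra-1-only peaks that lack it, all chosen under the same limits. Beyond the window but within the peak, the exact element was found in 112 shared peaks, 6 members and 1 Fra-1-only peak. The share with a one-mismatch word did not pass the test against either class, at 81.2% of shared peaks (two-sided Fisher exact test, adjusted p = 0.149) and 82.1% of Fra-1-only peaks (Fisher exact test, adjusted p = 0.300). When the classes were chosen anew with a window of 50 bp to each side for both the exact element and the words, which gave 1227 members, the order turned, at 56.6% against 64.1% of shared peaks (Fisher exact test, adjusted p = 1.21e-05) and 68.0% of Fra-1-only peaks (Fisher exact test, adjusted p = 4.37e-08).

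Which relative that was differed between the classes. TGAATCA lay in 380 members, 49.1% (45.5 to 52.7), against 2.39% of the neighbouring windows, a ratio of 20.5. Shared peaks without the element held it in 637 of 1848 cases, 34.5% (32.3 to 36.7), and Fra-1-only peaks in 206 of 934 cases, 22.1% (19.4 to 24.9). The share in members was higher than in shared peaks (two-sided Fisher exact test, adjusted p = 6.53e-11) and than in Fra-1-only peaks (Fisher exact test, adjusted p = 3.20e-30). When the classes were chosen anew with the whole peak as the window for both the exact element and the words, the word was in 35.2% of 1028 members and 32.7% of shared peaks and did not pass (Fisher exact test, adjusted p = 0.254). These p-values were adjusted over the 38 tests of 19 words in 2 comparisons, and the word tests were added after the shares had been seen. Over all Fra-2 peaks the word was found in 16.6% of windows, and in the 3350 distal Fra-2-only peaks with the exact element in 7.79%.

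Of the 19 words, 4 passed against shared peaks (21.1%) and 5 against Fra-1-only peaks (26.3%). TGAATCA was the only one of them that was higher in the members. TTAGTCA was found in 118 members (15.2%), in 23.9% of shared peaks (Fisher exact test, adjusted p = 3.14e-06) and in 26.3% of Fra-1-only peaks (Fisher exact test, adjusted p = 2.03e-07), against 1.57% of the windows beside the members. TTACTCA, which has the same change beside the other middle base, was found in 57 members (7.36%), 14.4% of shared peaks (Fisher exact test, adjusted p = 1.75e-06) and 16.9% of Fra-1-only peaks (Fisher exact test, adjusted p = 2.54e-08). TGACACA was found in 63 members (8.14%), 12.6% of shared peaks (Fisher exact test, adjusted p = 0.00483) and 12.1% of Fra-1-only peaks (Fisher exact test, adjusted p = 0.0390). TAAGTCA, in 25 members (3.23%), passed only against Fra-1-only peaks, which held it in 5.89% of windows (Fisher exact test, adjusted p = 0.0466). The words with CpG at their start were rare: CGAGTCA was in 15 members (1.94%) and 0.205% of the windows beside them, CGACTCA was in 9 members (1.16%) and 0.479%, and neither passed between the classes.

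**Figure D1:**
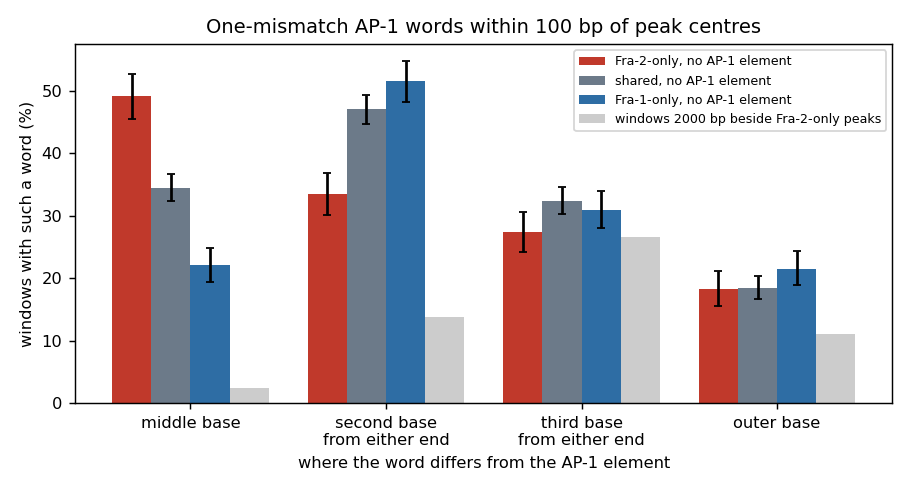
Share of windows within 100 bp of peak centres (%) with a word that differs by 1 base from the AP-1 element, by the place of that base, for Fra-2-only (n = 774), shared (n = 1848) and Fra-1-only (n = 934) distal peaks without the element and for windows 2000 bp beside the Fra-2-only peaks (n = 1462). Bars are shares and lines 95% exact binomial intervals; Fra-2-only peaks were highest for the middle base (49.1%) and lowest of the 3 for the second base (33.5%).

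Grouped by the place of the mismatch, the words of the members leaned to the middle base. A mismatch at the second base from either end was found in 33.5% of members (30.1 to 36.9), 47.0% of shared and 51.5% of Fra-1-only peaks, with 13.9% in the windows beside the members. A mismatch at the third base was about as frequent in members (27.4%) as beside them (26.6%), and stood at 32.4% and 30.9% in shared and Fra-1-only peaks. That share pools words that went both ways. TGACACA (8.14% of members and 2.33% beside them), TGACCCA (3.75% and 2.12%) and TGACGCA (2.45% and 0.547%) were more frequent in members. TGAGACA (3.88% and 6.02%), TGAGCCA (7.11% and 10.9%) and TGAGGCA (5.30% and 9.51%) were less frequent. A mismatch at an outer base was found in 18.2% of members, 11.1% of the windows beside them, 18.5% of shared and 21.5% of Fra-1-only peaks. These 4 shares overlap, since 356 members (46.0%) held at least 2 one-mismatch words, and they were not tested by place.

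Peak width goes with the chance that a peak is shared, so the middle-base word was also counted within widths. Among peaks 100 bp wide TGAATCA was in 43.4% of members (n = 431), 21.8% of shared peaks (n = 510) and 18.6% of Fra-1-only peaks (n = 446). Among those 150 bp wide the shares were 51.8% (n = 226), 34.0% (n = 432) and 25.2% (n = 302). Among those at least 200 bp wide they were 65.0% (n = 117), 41.8% (n = 906) and 25.3% (n = 186). The members had the highest share at every width, and in each class the share was lowest in the narrowest peaks.

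**Figure D2:**
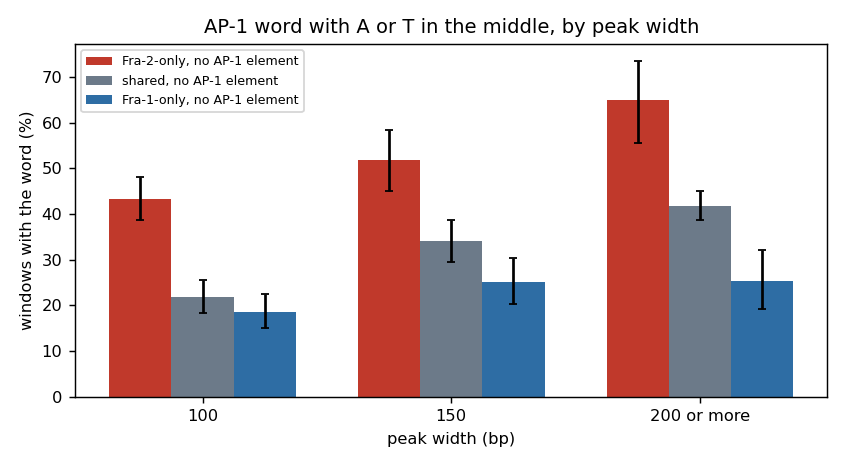
Share of windows (%) with TGAATCA on either strand, by peak width in bp, for distal Fra-2-only, shared and Fra-1-only peaks without the AP-1 element. Bars are shares and lines 95% exact binomial intervals; at 200 bp or more the shares were 65.0%, 41.8% and 25.3%.

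Read the other way, the word went with absence from the Fra-1 list among Fra-2 peaks that lack the element. Of the 2622 such distal peaks, members and shared together, 29.5% were unshared. Of the 1017 with TGAATCA, 380 were unshared, 37.4% (34.4 to 40.4). Of the 560 with TTAGTCA it was 118, 21.1% (17.8 to 24.7), and of the 471 with no one-mismatch word 123, 26.1% (22.2 to 30.3). These shares restate the counts above and were not tested again.

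The word sat where the exact element sits. In the 380 members that hold it, the copy nearest the peak centre was at a median of 24 bp from it, with 52.6% within 25 bp and 13.4% more than 50 bp away. The exact element in the 3350 Fra-2-only peaks chosen for it had a median distance of 21 bp, with 58.1% within 25 bp and 11.4% more than 50 bp away. The place of TGAATCA was much the same in the other classes without the element. Its median distance was 24 bp in shared peaks (52.4% within 25 bp) and 27 bp in Fra-1-only peaks (47.6%). In the 35 windows beside the members that held TGAATCA, the median was 53 bp and 20% were within 25 bp. TTAGTCA in members was less central, with a median of 35 bp and 39.0% of 118 within 25 bp. Of those 118 members 76 lacked TGAATCA, and the distance was not taken for them alone. The peaks were called on a grid of 50 bp, which limits how well a centre is known.

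**Figure D3:**
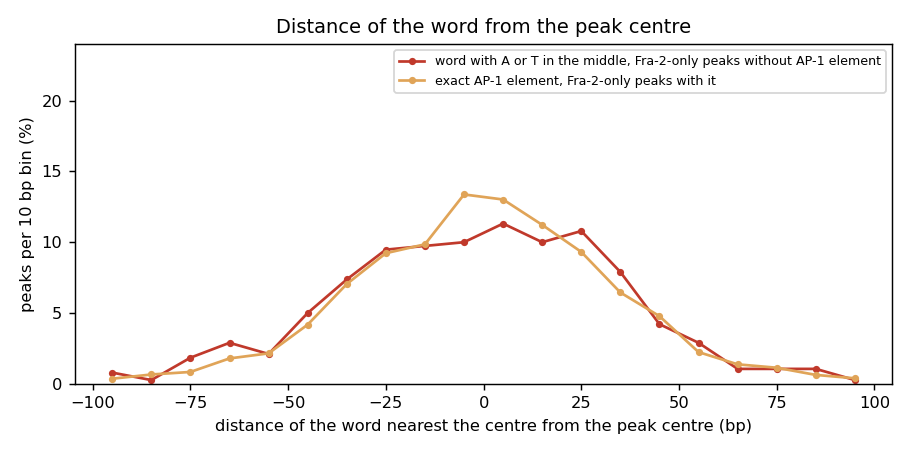
Percent of peaks in each 10 bp bin of distance (bp) from the peak centre to the nearest copy of TGAATCA in the 380 Fra-2-only peaks that hold it and lack the exact element, and to the exact element in the 3350 Fra-2-only peaks that hold that. Both lines are highest around the centre and low beyond 50 bp, where 13.4% and 11.4% of the peaks lie.

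The bases beside the word were also uneven. AP-1 sites are known to extend beyond 7 bases, with A or G preferred before the element and C or T after it. Of the 424 copies of TGAATCA in the members, 84.4% had A or G before, 86.3% had C or T after, and 311 copies (73.3%) had both. Among the 36 copies in the neighbouring windows 8 had both (22.2%). The share with both was 58.8% of 765 copies in shared peaks and 43.8% of 233 copies in Fra-1-only peaks, and 63.7% of 3705 exact elements in Fra-2-only peaks. A before and T after, as in the EML6, TUBB2B, BRINP2 and NANOS1 sequences above, was found around 136 of the 424 copies (32.1%), 20.8% of those in shared peaks and 13.3% of those in Fra-1-only peaks. The flanks were not tested.

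The 774 members fall into 4 groups by the words they hold. The 380 with TGAATCA were 138 ± 45.1 bp wide (SD over peaks) and had a mean GC content of 45.6%. Another 76 (9.82%) held TTAGTCA without TGAATCA and were alike in width, at 137 ± 49.2 bp. A further 195 (25.2%) held only other one-mismatch words, were 128 ± 45.4 bp wide and had a GC content of 49.7%. The remaining 123 (15.9%) held none of the 19 words and were the narrowest, at 121 ± 42.9 bp, with 70.7% of them 100 bp wide, the smallest width in the list. In 23 of the 123 (18.7%), over 20% of the 10-base words within 1 kb of the centre recurred, a sign of repeated sequence, against 2 of the 380 with TGAATCA (0.526%). Among the 123 were also more peaks with another Fra-2 peak within 12.5 kb, 60.2% against 37.1% of those with TGAATCA, while the 195 stood between, at 49.7%. An exact element beyond the window but within 500 bp of the centre was found in 30.9% of the 123 and 31.3% of the 195, against 16.6% of the 380. These 4 groups were formed on the words, so the differences are given without a test.

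The CRE was rare but more frequent in the members than in each of the other classes. It lay in 14 members, 1.81% (0.992 to 3.02), and in 1 of the 1462 windows beside them (0.0684%), while 0.402% of all Fra-2 windows held it. It lay in 12 of 3350 Fra-2-only peaks with the AP-1 element (0.358%, two-sided Fisher exact test, adjusted p = 0.00260), in 6 of 1848 shared peaks (0.325%, Fisher exact test, adjusted p = 0.00441) and in 1 of 934 Fra-1-only peaks (0.107%, Fisher exact test, adjusted p = 0.00441). A shorter word, TGACGTC, which every CRE contains, was in 17 members and passed in the same 3 comparisons (Fisher exact test, adjusted p = 0.0459, 0.0459 and 0.00260). Only 3 of those 17 lacked the full CRE, so the 2 results rest on nearly the same peaks. Among peaks at least 150 bp wide, which leave 343 members, no motif passed in any of the 3 comparisons. At least 1 of TGAATCA and the CRE was found in 389 members (50.3%).

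The 14 peaks with the CRE were not of a single kind. Of them 7 lay in introns, 7 were 100 bp wide, and none lay in sequence of recurring words. The widest, at 200 bp, were chr9:32672601-32672801, outside protein-coding genes with the nearest such start at TAF1L, and chr2:234912951-234913151 in an intron of TRPM8, which encodes the cold-sensing and menthol-sensing channel. At 100 bp, others lay in introns of OSBPL6, an oxysterol-binding protein gene (chr2:179107151-179107251), and of PLTP, which encodes phospholipid transfer protein (chr20:44534351-44534451). One lay 56.1 kb from DUSP1, the gene of a phosphatase that inactivates MAP kinases (chr5:172142001-172142101). Of the 14, 5 also held TGAATCA and 3 held no one-mismatch word.

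In all, 31 consensus motifs were sought on both strands, with p-values adjusted over 93 tests in 3 comparisons. Of these, 4 passed against Fra-2-only peaks with the AP-1 element (12.9% of 31), 2 against shared peaks (6.45%) and 3 against Fra-1-only peaks (9.68%). Beside the CRE and its shorter form, these were the TEAD and antioxidant motifs. GGAATG, bound by the TEAD partners of the YAP and TAZ coactivators, was in 171 members, 22.1% (19.2 to 25.2), against 11.1% of the windows beside them and 22.7% of all Fra-2 windows. It was more frequent than in Fra-2-only peaks with the AP-1 element (15.8%, Fisher exact test, adjusted p = 0.00260), less frequent than in Fra-1-only peaks (28.2%, Fisher exact test, adjusted p = 0.0459), and did not pass against shared peaks (27.1%, Fisher exact test, adjusted p = 0.0544). The antioxidant element TGACNNNGC, bound by NRF2 with small MAF proteins, was in 10.7% of members and 15.2% of Fra-2-only peaks with the AP-1 element (Fisher exact test, adjusted p = 0.0218); one of its forms contains the exact element, whose absence defined the members.

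The other 27 motifs passed in none of the 3 comparisons, and are described by their shares in members and in the windows beside them. RUNX sites (TGTGGTT) were in 7.62% and 3.69%, FOXA sites (TGTTTAC) in 5.56% and 2.53%, and the composite ATF-C/EBP element TGATGCAA in 1.68% and 0.342%. ETS sites (GGAAGT) were in 15.2% and 9.23%, and NFI sites (TTGGCA) in 15.0% and 9.30%. The E-box CAGGTG of the ZEB and SNAIL repressors went the other way, with 11.1% and 19.4%, as did YY1 sites (AAGATGG), with 2.07% and 5.27%. Shared peaks held RUNX sites in 9.42% of windows, FOXA sites in 7.52%, this E-box in 11.2% and YY1 sites in 2.54%. GATA sites (AGATAA), known from luminal breast cells, were in 9.17% and 11.1%. The NRF1 motif was in none of 774 windows (0 to 0.475%), and the CTCF motif in 2. A match says only that the letters are present.

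**Figure D4:**
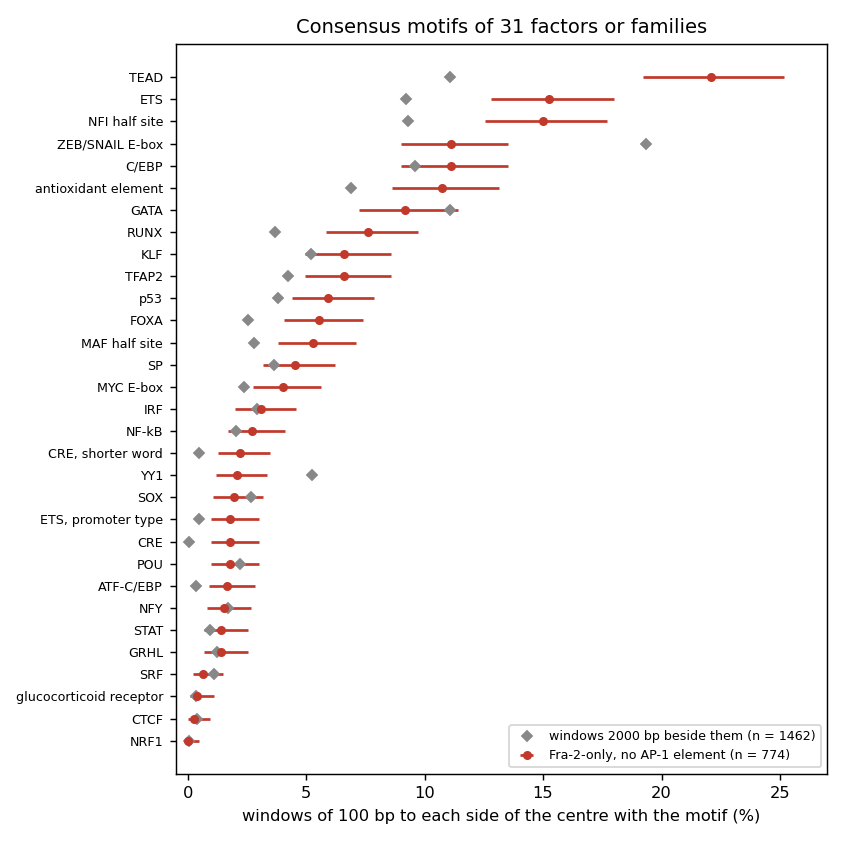
Share of windows within 100 bp of peak centres (%) with each of 31 consensus motifs in the 774 Fra-2-only peaks without the AP-1 element (points, with 95% exact binomial intervals) and in 1462 windows 2000 bp beside them (diamonds). The TEAD motif was in 22.1% of the peaks and 11.1% of the windows beside them, and the ZEB/SNAIL E-box in 11.1% and 19.4%.

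Base composition differed little between the classes. The windows of the members had a GC content of 47.1 ± 7.58% (SD, n = 774), 1.15 percentage points below Fra-2-only peaks with the element (48.3 ± 7.57%, permutation test over peaks, 100000 resamples, adjusted p = 0.000135). It was 1.13 points above shared peaks (46.0 ± 7.27%, permutation test, adjusted p = 0.00036) and 2.83 points above Fra-1-only peaks (44.3 ± 7.61%, permutation test, adjusted p = 3e-05). Each difference is small beside the spread within a class. Its part in the differences between words was not tested.

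The members were narrow. Their mean width was 133 ± 45.6 bp (SD, n = 774) with a range of 100 to 400 bp, and 431 of them (55.7%) were 100 bp wide, 226 were 150 bp, 89 were 200 bp, 18 were 250 bp and 10 were 300 bp or more. Fra-2-only peaks with the element were wider, at 152 ± 53.1 bp (n = 3350), a difference of −19.2 bp for members minus those peaks (two-sided permutation test over peaks, p = 1e-05, the smallest that 100000 resamples can give). Shared peaks without the element had a mean of 196 bp and reached 850 bp, and Fra-1-only peaks had a mean of 139 bp. Those 2 values are a description, because width and sharing go together by selection.

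**Figure D5:**
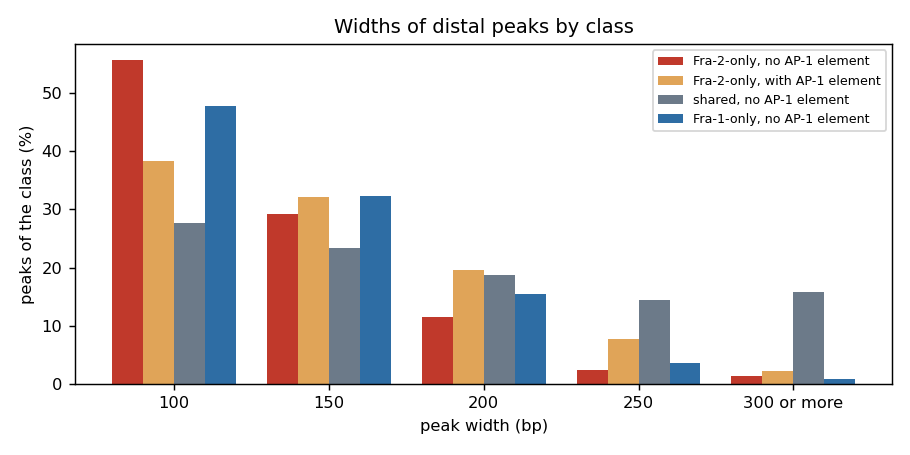
Percent of the peaks of each class by peak width in bp, for distal Fra-2-only peaks without (n = 774) and with (n = 3350) the AP-1 element and for distal shared (n = 1848) and Fra-1-only (n = 934) peaks without it. Of the Fra-2-only peaks without the element 55.7% were 100 bp wide, against 38.4% of those with it.

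The widest members lay in varied places. Of these, 3 spanned 400 bp, in an intron of ZFPM2 (chr8:106530451-106530851), a cofactor of GATA proteins, outside protein-coding genes 3.09 kb from SHISA5 (chr3:48545151-48545551) and in an intron of ANAPC11, a subunit of the anaphase-promoting complex (chr17:79856351-79856751). One of 350 bp lay in an intron of EML6 (chr2:54955851-54956201), which encodes a protein of the EML family of microtubule-associated proteins. Of the 6 of 300 bp, 5 lay in an intron of FOXP1, a forkhead repressor (chr3:71158501-71158801), in an intron of EHF, an epithelial ETS factor (chr11:34675551-34675851), in an exon of SNAP47 (chr1:227947101-227947401), and outside protein-coding genes nearest to TUBB2B (chr6:3209551-3209851) and SERPINB6 (chr6:2976851-2977151). TGAATCA was in those of EML6, TUBB2B and EHF, TTAGTCA in that of ANAPC11, and no one-mismatch word in those of ZFPM2 and FOXP1.

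By gene structure, no difference from the other Fra-2-only peaks passed. Their centres lay in introns of protein-coding genes in 397 cases, 51.3% (47.7 to 54.9), in exons in 16 cases (2.07%) and outside protein-coding genes in 361 cases (46.6%). For Fra-2-only peaks with the element the shares were 50.9%, 3.28% and 45.8% (Fisher exact test, adjusted p = 0.878, 0.148 and 0.878). Introns held fewer of the shared peaks (44.7%, Fisher exact test, adjusted p = 0.00518) and of the Fra-1-only peaks (43.5%, Fisher exact test, adjusted p = 0.00518), and the space outside protein-coding genes held more (53.4%, Fisher exact test, adjusted p = 0.00518, and 55.0%, adjusted p = 0.00504). These differences did not pass among peaks at least 150 bp wide, where introns held 51.3% of members, 46.0% of shared peaks (Fisher exact test, adjusted p = 0.178) and 46.3% of Fra-1-only peaks (Fisher exact test, adjusted p = 0.287). Clusters of peaks of the same class within 12.5 kb were also cut to 1 peak each. The differences from shared peaks then did not pass either (Fisher exact test, adjusted p = 0.0638 for introns and 0.0601 outside protein-coding genes). Median distances to a start site were 15.7 kb in members and 15.5, 20.5 and 21.7 kb in the 3 other classes, and 51 members were more than 100 kb from any.

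The members lay closer to other peaks than Fra-2-only peaks with the element did. Another Fra-2 peak was within 12.5 kb of 340 members, 43.9% (40.4 to 47.5), against 30.7% of Fra-2-only peaks with the element (two-sided Fisher exact test, adjusted p = 1.15e-11) and 51.0% of shared peaks (Fisher exact test, adjusted p = 0.00113). A shared Fra-2 peak was within that reach of 239 members (30.9%) and of 679 Fra-2-only peaks with the element (20.3%). The edge of a Fra-1 peak was within 500 bp of 82 members (10.6%) and of 100 Fra-2-only peaks with the element (2.99%). The median distance to the nearest Fra-1 centre was 32.2 kb in members and 56.2 kb in Fra-2-only peaks with the element. An exact AP-1 element beyond the window but within 500 bp of the centre was found in 22.6% of members, with no difference that passed from shared (20.6%, Fisher exact test, adjusted p = 0.249) or Fra-1-only peaks (19.6%, Fisher exact test, adjusted p = 0.249). In Fra-2-only peaks with the element such a further element was found in 15.0%, and this difference was not tested.

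Sequence of recurring words surrounded 33 members, 4.26% (2.95 to 5.94), more than Fra-2-only peaks with the element (0.896%, two-sided Fisher exact test, adjusted p = 4.68e-09). The shares in shared peaks, 6.39%, and Fra-1-only peaks, 3.75%, did not pass (Fisher exact test, adjusted p = 0.0517 and 0.620). Among peaks at least 150 bp wide the order against Fra-2-only peaks with the element turned, at 0.583% and 1.02% (Fisher exact test, adjusted p = 0.762). A stretch of 20 bases was shared between windows more than 1 kb apart in 81 members (10.5%), with at most 7 members sharing the same stretch. How uniquely reads map to such members was not tested.

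The limits of the selection ran through the middle of continuous distances. Measured to its middle base, the nearest exact element to a member centre was 98 bp away, so that its outer end lay just beyond the window. In 52 members an element was at most 25 bp beyond the window. On the other side, 99 Fra-2-only peaks counted as having the element had the middle of their nearest 75 to 97 bp from the centre. In all, 2 members touched a Fra-1 peak without sharing a base, in introns of SPIRE1 (chr18:12640551-12640701), an actin nucleator, and of PEDS1 (chr20:48753651-48753751), and one in an intron of TPCN2 (chr11:68848001-68848101) was 50 bp from the next. A Fra-1 edge was within 50 bp of 10 members, while 31 shared peaks overlapped by exactly 50 bp, the smallest overlap. The farthest member was 1601.45 kb from any Fra-1 centre (chr5:99842101-99842201, near FAM174A), followed by those in introns of COL12A1, a fibril-associated collagen (chr6:75914151-75914251), and of MAML2, a Notch coactivator (chr11:96058201-96058351). The first 2 of these held TGAATCA. The member nearest a start site was 1.035 kb from that of XIRP2 (chr2:167991301-167991451), and a peak in an intron of DAPK3 at 1 kb (chr19:3968751-3968901) fell just outside the selection.

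Genes were taken as near a member if a start site was within 100 kb of its centre. Such genes numbered 1471 of 18886 protein-coding genes (7.79%), and 600 members (77.5%) had at least 1 of them. Most genes, 1292, had 1 member, 151 had 2, 23 had 3 and 5 had 4. The 5 with 4 were ARHGEF18, a guanine nucleotide exchange factor gene with 4 members in its introns among 8 Fra-2 peaks in reach, PTK2, the gene of focal adhesion kinase, with 16 Fra-2 peaks, and the neighbours TNFRSF14, MMEL1 and PRXL2B on chromosome 1, whose start sites reach the same members. Introns of ANKRD30BL, SDC4, NRG1 and TTC34 held 3 members each. ANKRD30BL had 21 Fra-2 peaks in reach and SDC4 had 6. ANKRD30BL lies in a stretch of chromosome 2 that was left out in an unplanned setting. Without that stretch 768 members were left. Recurring words then surrounded 3.91% of members and 5.35% of shared peaks, against 4.26% and 6.39% with it. Why peaks gather there was not tested, so the count of 21 need not reflect binding at the gene. NRG1 encodes neuregulin, a ligand of ERBB receptors, and SDC4 encodes syndecan-4, a heparan sulphate proteoglycan of focal adhesions.

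The 8 gene lists of this biology were counted against that background of 7.79%, without a test. For genes with any Fra-2 peak in reach no such background was counted. Of 20 YAP and TEAD genes, 6 (30.0%) had a member in reach, and 18 had any Fra-2 peak. ARHGAP29, a GTPase-activating protein gene and YAP target, had 2, the widest at chr1:94765851-94766051 with TGAATCA. VGLL3, a TEAD cofactor, had 2, one in its intron 2.28 kb from a start site (chr3:87037501-87037651) with no one-mismatch word. WWTR1, which encodes TAZ, had 1 in an exon with TGAATCA (chr3:149290651-149290801). CCN1, a matricellular YAP target, had 2, the widest in an intron of its neighbour DDAH1 (chr1:86010451-86010601).

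Of 20 EGFR and MAPK genes, 3 (15.0%) had a member in reach. DUSP1 had 3 of its 14 Fra-2 peaks among the members, the widest at chr5:172167901-172168051. AREG, the gene of the EGFR ligand amphiregulin, had 1 at 28.0 kb (chr4:75339001-75339101). Both of these peaks held TTAGTCA without TGAATCA.

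Of 20 AP-1 genes, 2 had a member in reach. MAFG, a small MAF partner, had 2, the widest being the 400 bp peak in ANAPC11. BACH1, a heme-regulated repressor, had 1 in its own intron (chr21:30593901-30594101). None of the Fos or Jun genes on the list had a member in reach. Of 20 mesenchymal genes, 2 did, ITGA5, the fibronectin receptor subunit, in its intron (chr12:54805251-54805401), and SNAI1, which encodes SNAIL, at 51.0 kb (chr20:48650501-48650601), both with TGAATCA. Of 19 luminal and epithelial genes only SPDEF, an epithelial ETS factor, had 1 (chr6:34597951-34598051), in an intron of ILRUN and with TGAATCA. Of 19 protease genes only TIMP2, a metalloprotease inhibitor, had 1 (chr17:76879301-76879501), in its intron and with no one-mismatch word. Of 20 genes of the unfolded protein and amino acid stress response only VLDLR had 1 (chr9:2655801-2655901), in an exon and with TTAGTCA. None of 20 cytokine genes had a member within 100 kb, beside 7.79% of all protein-coding genes, and 15 of the 20 had a Fra-2 peak in reach. List members on chromosome X were left out with it.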

How the data were processed

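Chromatin immunoprecipitation and sequencing for Fra-1 and Fra-2 was done in MDA-MB-231 cells, with Illumina libraries, per the labels' protocols. Bowtie2, with no version, and the build hg19 are named per the submitters' processing notes. How peaks were called, at what threshold, and how replicates were joined is not stated in the sources used here. Both deposited lists hold other values than read signals: the authors' peak starts and ends only, on a grid of 50 bp, with no score or height. Starts were read as 1-based, and width is end minus start. Depth is unknown, so the number of peaks alone sets the precision.

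The members, gene lists, motifs and tests were chosen with earlier results of these data known. Start sites were the 121269 positions of protein-coding and long noncoding transcripts of GENCODE 44 on GRCh37. The rule took peaks sharing no base pair with the other list, a TSS limit of 1 kb, a window of 100 bp to each side of the centre and a margin of 1 Mb around runs of N of at least 1 Mb. The same limits gave the 3 classes for comparison. Shares were compared with two-sided Fisher exact tests and means with permutation tests of 100000 resamples over peaks, with Benjamini-Hochberg adjustment within each family and calls at 0.05. The 160 entries of 8 gene lists were matched by symbol. Named regions were the 10 widest members outside recurring words, the 3 nearest to and 3 farthest from a Fra-1 peak, those at the TSS limit, and the widest with each motif or word that passed the rule. Sequences are those of the widest members outside exons, recurring words and chromosome 8. Named genes were up to 4 per list with the widest member in reach and the 5 genes with most members. All peaks with the CRE and the introns with 3 or more members were added after their values were seen. Some regions and genes that this rule names are not reported here. The design foresaw a threshold on a peak score. As the lists have none, a width of at least 150 bp replaced it. The tests were tested on simulated data. The tools were samtools 1.23.1 and Python 3.11.15 with scipy 1.17.1, pandas 2.3.3, numpy 2.4.6 and matplotlib 3.10.9.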

Additional observations from a re-analysis of the deposited data

How the results depend on the processing

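In 343 recomputed values over 15 settings, 289 kept direction and side of the threshold or, for counts, which include the numbers of calls, stayed within 1.5 times the reported count. The excess of TGAATCA over shared peaks ranged from 2.50 to 21.6 percentage points over 12 settings, and passed in all except the whole-peak window (2.50 points, Fisher exact test, adjusted p = 0.254). Its excess over Fra-1-only peaks ranged from 13.4 to 31.1 points and passed the Fisher exact test in all 12 (largest adjusted p = 4.33e-13). Where a value changed, the cause was not tested, apart from settings that by construction keep other or fewer peaks. Differences below are members minus the class named, in percentage points, by two-sided Fisher exact tests.

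Both window settings choose the classes anew. With a window of 50 bp to each side the members became 1227 and the genes in reach 2397. The share with a one-mismatch word turned, to −7.50 against shared and −11.5 against Fra-1-only peaks, and with the whole peak as window to −11.8 and −8.39. The 50 bp window gave 7 word calls against shared and 8 against Fra-1-only peaks, and 1 motif call against Fra-2-only peaks with the element and 5 against shared peaks. The whole-peak window gave 10 word calls against shared peaks, and 6 motif calls against shared and 7 against Fra-1-only peaks. Recurring words differed from shared peaks by −2.44 (50 bp) and −3.10 (whole peak), both now past the threshold, and from Fra-1-only peaks by −0.674 and −0.311, turned. An element beyond the window differed from shared peaks by −1.07 (50 bp, turned) and 4.56 (whole peak, now past it). The share outside genes against peaks with the element turned at 50 bp (−1.14).

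With peaks at least 150 bp wide, 343 members and 704 genes were left and motif calls were 0 in all 3 comparisons. Introns (5.35 against shared, 5.00 against Fra-1-only peaks) and the space outside genes (−5.80 and −7.01) no longer passed, and the latter turned against peaks with the element (−0.108). Recurring words turned against peaks with the element (−0.434) and Fra-1-only peaks (−0.646) and passed against shared peaks (−3.60). An element beyond the window turned against both (−0.473 and −0.762).

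With sharing defined by 50% reciprocal overlap, 1 motif passed against shared peaks, and recurring words (−2.40) and an element beyond the window (5.23) passed. With no Fra-1 centre allowed within 500 bp, the one-mismatch share (6.08) and recurring words (−3.98) passed against shared peaks, and the element beyond the window (−0.545) and the space outside genes against peaks with the element (−1.08) turned. Clusters of centres within 12.5 kb of the next were formed within each class alone, so members beside peaks of another class stayed. With 1 peak per cluster 731 members were left. The one-mismatch share (−0.598) and recurring words (0.613) then turned against shared peaks. Introns (4.94) and outside genes (−5.23) no longer passed against shared peaks, and 4 motifs did. Beyond 5 kb from a TSS the space outside genes against peaks with the element turned (−0.501), and 3 words passed against Fra-1-only peaks. With protein-coding start sites alone introns turned against peaks with the element (−0.552), and recurring words passed against shared peaks (−2.69), as they did with the start of every transcript (−2.27), a setting chosen after seeing the data. Within 10 kb, 209 genes had a member.

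No paired analysis was possible because each antibody has 1 peak list with no replicate columns, and leaving out a replicate was not possible for the same reason. The lists hold no score, and the input was not used.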
